A study of Mus musculus with 62 samples.

Results

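The diaphragm of cachectic mice was followed here from 4 to 6 weeks after melanoma cells were placed in the flank. The comparison takes 10 of the 62 RNA-seq libraries of the series, from 5 cachectic mice at 6 weeks and 5 at 4 weeks. Both groups were defined by treatment and time in the sample labels and by no measured value. The choice of this comparison was made with earlier results of these data known. The series holds 12 groups, made of cachectic, non-cachectic and control mice at 2, 4, 6 and 8 weeks, with 7 cachectic mice at 8 weeks and 5 mice in every other group. Each library is the diaphragm of a separate mouse, so no mouse was measured at both times. Cachectic mice carried a melanoma xenograft that wastes its host, non-cachectic mice a melanoma xenograft that does not, and control mice a mock injection. All mice are female, and the labels give an age of 2 months at every time point. The labels name the strain C57BL6/J, whereas the text of the series and the study's methods name athymic NCI Ath/nude mice, and the conflict was not resolved. A list of T cell markers had 0 of 7 genes at the level needed for testing. The cachectic arm stands for the xenograft of that arm and not for cachexia in general, and body weights were not used here.

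The diaphragm is the main muscle of inspiration and never rests, and it draws its energy largely from the oxidation of fatty acids in mitochondria. In that pathway fatty acids are bound in the cytosol by fatty acid binding proteins, enter mitochondria through the carnitine shuttle, and are shortened by the acyl-CoA dehydrogenases and the trifunctional protein. Cachexia is the loss of muscle and fat in chronic disease. Muscle wasting is known to involve ubiquitin ligases such as Trim63 (MuRF1) and Fbxo32 (atrogin-1), which tag muscle proteins for the proteasome, and systemic inflammation, in which IL-6 family cytokines acting through STAT3 raise acute phase proteins.

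Values are TPM, reads per transcript length scaled to sum to 1000000 in each library, and fold changes are differences of log2(TPM + 1) with their standard error (SE), which understate the change of genes with few transcripts. The depth in reads is unknown, so no counting error can be given. The 10 libraries list 17909 to 18597 genes above 0, with 18203 ± 183 (SD, n = 5) at 4 weeks and 18195 ± 257 at 6 weeks (difference -7.4, exact two-sided permutation test p = 0.976). Genes of at least 1 TPM did differ, at 11961 to 12214 per library at 4 weeks and 12295 to 12684 at 6 weeks without overlap (difference 333.6, exact two-sided permutation test p = 0.00794, the smallest that 5 against 5 mice allow). The 37 mitochondrially encoded genes held 43.0% ± 2.20 of the TPM at 4 weeks and 39.6% ± 3.76 at 6 weeks (difference -3.37 percentage points, exact two-sided permutation test p = 0.127). Over all 13578 genes tested the median log2 fold change was 0.12, and 76.7% of genes were positive. With median-ratio scaling between libraries it was 0.01, so single values are read against that shift. In 6-week replicate 5 the mean log2(TPM + 1) of 10 liver genes was 7.86, against 0.33 to 2.29 in the other 9 mice. Counts of lists whose proteins liver also makes are therefore given without it as well. A control mouse of 4 weeks also had raised liver markers, at 6.31. In bulk tissue, fewer cells of a type and less RNA per cell cannot be told apart.

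Few genes differed past an adjusted threshold in the fit of 62 libraries, and they rose more often than they fell. In limma's fit of all 62 libraries, 11 genes (0.081% of 13578) were higher and 2 (0.0147%) lower at 6 than at 4 weeks at an adjusted p under 0.05 (limma with Benjamini-Hochberg adjustment), and 5 of the 11 also had a log2 fold change over 1. At an unadjusted p under 0.05 the counts were 825 higher (6.08%) and 130 lower (0.957%). All 5 mice of 6 weeks lay above all 5 of 4 weeks for 246 genes (1.81%) and below them for 71 (0.523%). In control mice 0 genes (0%) passed limma's adjusted threshold over the same interval, with 56 (0.412%) at an unadjusted p under 0.05, and Dunn's test also called 0. In non-cachectic mice the limma counts were 0 (0%) and 52 (0.383%), and Dunn's test called 0. The difference between the cachectic and the control change passed the adjusted threshold for 0 genes (0%) and the unadjusted one for 506 (3.73%). Against the non-cachectic change the same counts were 0 (0%) and 249 (1.83%). The counts of this fit were fragile: leaving out 4-week replicate 2 gave 76 genes and leaving out 6-week replicate 5 gave 12, and leaving out any other cachectic mouse of the 10 gave 0 to 3. Dunn's test of the 12 groups called 0 genes in cachectic mice, with 1099 at an unadjusted p under 0.05.

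The fit of 62 libraries takes its spread from all groups, and the groups of 2 and 8 weeks vary more. The median SD over genes was 0.544 in cachectic mice at 2 weeks and 0.519 at 8 weeks, against 0.174 at 4 and 0.189 at 6 weeks. A fit of the 30 libraries of 4 and 6 weeks, chosen after these values were seen, called 1294 genes higher (9.53%) and 157 lower (1.16%) in cachectic mice, among them all 13 calls of the fit of 62 libraries. With median-ratio scaling the fit of 30 libraries called 302 genes higher (2.22%) and 723 lower (5.32%), so the split between directions turns on the scaling. Called in the same direction either way were 302 higher and 157 lower genes, and 0 genes changed direction. The count of 1451 ran from 264 without 4-week replicate 1 to 3498 without 4-week replicate 2. It was 538, 788 and 758 without 4-week replicates 3, 4 and 5, and 365, 804 and 985 without 6-week replicates 1, 2 and 3, 1317 without replicate 4 and 3087 without replicate 5. In the same fit the cachectic change exceeded the control change for 27 genes (0.199%) and fell below it for 22 (0.162%), and differed from the non-cachectic change for 1 gene, Acads. Below, an adjusted p is from limma with Benjamini-Hochberg adjustment over all 13578 genes, in the fit of 62 libraries or, where so named, of 30 libraries, and rose and fell are used of genes past 0.05 in either. Counts of list members are to be read against these shares of all genes. Without single cachectic mice, all genes called higher ran from 207 (4-week replicate 1 left out) to 3100 (4-week replicate 2 left out). Those called lower ran from 57 to 398 in the same fits. List counts without single mice are to be read against these counts. The lists were written with earlier results of these data known, so such counts are descriptions and not tests. Where a gene's call in the fit of 30 libraries was lost in some of the 10 fits without 1 cachectic mouse, the number in which it held is given. Genes named beyond the 13 and the examples of each list were chosen after their values were seen.

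Among the 13 genes called in the fit of 62 libraries, Lcn2 had the largest change. Lcn2 (chr2:32384633-32388252, minus strand, GRCm38) encodes lipocalin 2, an iron-siderophore binding protein of the acute phase. Its TPM in 4-week replicates 1 to 5 was 3.4, 31.4, 4.19, 6.61 and 4.12, and in 6-week replicates 1 to 5 it was 94.6, 24.5, 26.1, 22 and 33.1. A single 4-week mouse, replicate 2, overlapped the 6-week range and the other 4 lay below it. The log2 fold change was 2.16 ± 0.43 (adjusted p = 0.0249, and 0.00309 in the fit of 30 libraries). Mean Lcn2 was 2.78 and 2.84 TPM in control mice at 4 and 6 weeks and 3.2 and 3.83 in non-cachectic mice. The difference from the control change did not pass the threshold in the fit of 30 libraries (adjusted p = 0.074). In cachectic mice at 8 weeks mean Lcn2 was 56.2 TPM.

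Apod (chr16:31296192-31314808, minus strand) encodes apolipoprotein D, a lipocalin that binds arachidonic acid and is known to rise in stressed tissues. Its TPM was 38.4, 155, 34.5, 69.2 and 37.3 at 4 weeks and 243, 149.6, 155, 172 and 137 at 6 weeks, a log2 fold change of 1.57 ± 0.31 (adjusted p = 0.0249). As for Lcn2, 4-week replicate 2 reached the 6-week range. Tmem252 (chr19:24674008-24682233), a little-studied membrane protein gene, had 0.418, 12.6, 0.720, 4.63 and 0.467 TPM at 4 weeks and 20.7, 8.01, 5.68, 14.7 and 5.76 at 6 weeks (log2 fold change 1.80 ± 0.37, adjusted p = 0.0249). The 4-week mice of Tmem252 fall apart into replicates 2 and 4 and 3 mice under 1 TPM. Ackr1 (chr1:173331886-173333750, minus strand), the atypical chemokine receptor of venules, had 3.0, 10.6, 5.01, 4.55 and 5.77 TPM at 4 weeks and 15.1, 10.6, 10.4, 10.8 and 8.02 at 6 weeks. Its log2 fold change was 0.89 ± 0.18 (adjusted p = 0.0249), again with overlap through replicate 2 alone. In the fit of 30 libraries the calls of Tmem252 and Ackr1 held in 9 of the 10 fits without 1 cachectic mouse.

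Mmp3 (chr9:7445822-7455975, plus strand) encodes stromelysin 1, a secreted metalloprotease that cleaves many matrix proteins and activates other metalloproteases. Its TPM was 0.437, 1.06, 0.261, 1.54 and 1.13 at 4 weeks and 1.84, 8.63, 4.25, 5.4 and 3.02 at 6 weeks. All 6-week mice lay above all 4-week mice. The log2 fold change was 1.5 ± 0.31 (adjusted p = 0.0249, and 6.13e-04 in the fit of 30 libraries), and it exceeded the control change by 1.68 (adjusted p = 0.0147 in the fit of 30 libraries). The 250 bases before its start, at chr9:7445572-7445821 of GRCm38 on the plus strand, are shown from RefSeq because Mmp3 is the named gene with the largest rise without overlap. Capitals mark the single match to TTGCNNAA, a C/EBP pattern searched on both strands, which begins 148 bases before the start.
Mmp3: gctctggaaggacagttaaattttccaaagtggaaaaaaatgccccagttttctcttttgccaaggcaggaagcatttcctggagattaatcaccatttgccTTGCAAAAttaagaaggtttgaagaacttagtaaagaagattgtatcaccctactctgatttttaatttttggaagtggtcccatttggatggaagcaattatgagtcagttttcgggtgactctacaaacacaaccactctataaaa
The pattern is found in 9.56% of 32851 promoter windows of that length, and a match is a description of these letters only.

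The other called genes that rose have low levels. Plscr2 (chr9:92275602-92297752), a phospholipid scramblase, had 5.6, 6.9, 4.85, 4.93 and 6.0 TPM at 4 weeks and 10.3, 9.77, 8.32, 8.45 and 7.29 at 6 weeks, without overlap (log2 fold change 0.56 ± 0.12, adjusted p = 0.0249). C6 (chr15:4727175-4814967), which encodes a component of the membrane attack complex of complement, had 0.243, 1.43, 0.103, 0.491 and 0.492 and 2.79, 1.43, 2.68, 1.3 and 1.88 TPM (log2 fold change 0.98 ± 0.21, adjusted p = 0.0354). Cuzd1, a CUB domain gene, had 0.544, 0.970, 0.624, 0.681 and 0.904 and 1.82, 2.39, 3.68, 1.85 and 2.15 TPM (log2 fold change 0.93 ± 0.21, adjusted p = 0.0449). In the fit of 62 libraries the calls of C6 and Cuzd1 were lost without 6-week replicate 5, and both genes passed in all 10 of the fits of 30 libraries that left out 1 cachectic mouse. Cfap36, a cilia and flagella associated gene, had 5.79, 8.69, 7.16, 6.11 and 6.93 and 10.9, 10.1, 11, 9.46 and 8.58 TPM (log2 fold change 0.48 ± 0.10, adjusted p = 0.0323). In C6 and Cfap36 the 4-week replicate 2 reached the lower end of the 6-week mice, and in Cuzd1 the groups do not overlap. Mctp1, a calcium-binding C2 domain protein, had 0.497, 1.42, 0.897, 1.1 and 1.28 and 3.12, 2.13, 1.86, 1.96 and 1.57 TPM (log2 fold change 0.62 ± 0.14, adjusted p = 0.0374), and in the fit of 30 libraries its call held in 8 of the 10 fits without 1 mouse. The clone G530011O06Rik, whose function is not known, went from 1.26, 1.32, 0.285, 0.750 and 0.198 to 3.09, 3.28, 1.9, 2.58 and 1.96 TPM (log2 fold change 1.05 ± 0.22, adjusted p = 0.0269). Of the 11 that rose, Mmp3, Plscr2, C6 and Cfap36 also exceeded the control change in the fit of 30 libraries (adjusted p = 0.0147, 0.0385, 0.018 and 0.0455), in 10, 5, 9 and 3 of the 10 fits that left out 1 cachectic mouse. The genes that fell were Hadhb, described with fatty acid oxidation below, and the antisense gene 2310016G11Rik, with 4.38, 3.39, 6.93, 5.38 and 4.19 TPM at 4 weeks and 1.95, 1.35, 1.57, 1.99 and 3.09 at 6 weeks (log2 fold change -0.96 ± 0.21, adjusted p = 0.0323). The sources differ on whether the library kit keeps strand, so reads of 2310016G11Rik and of its partner strand may not be separated.

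**Figure D1:**
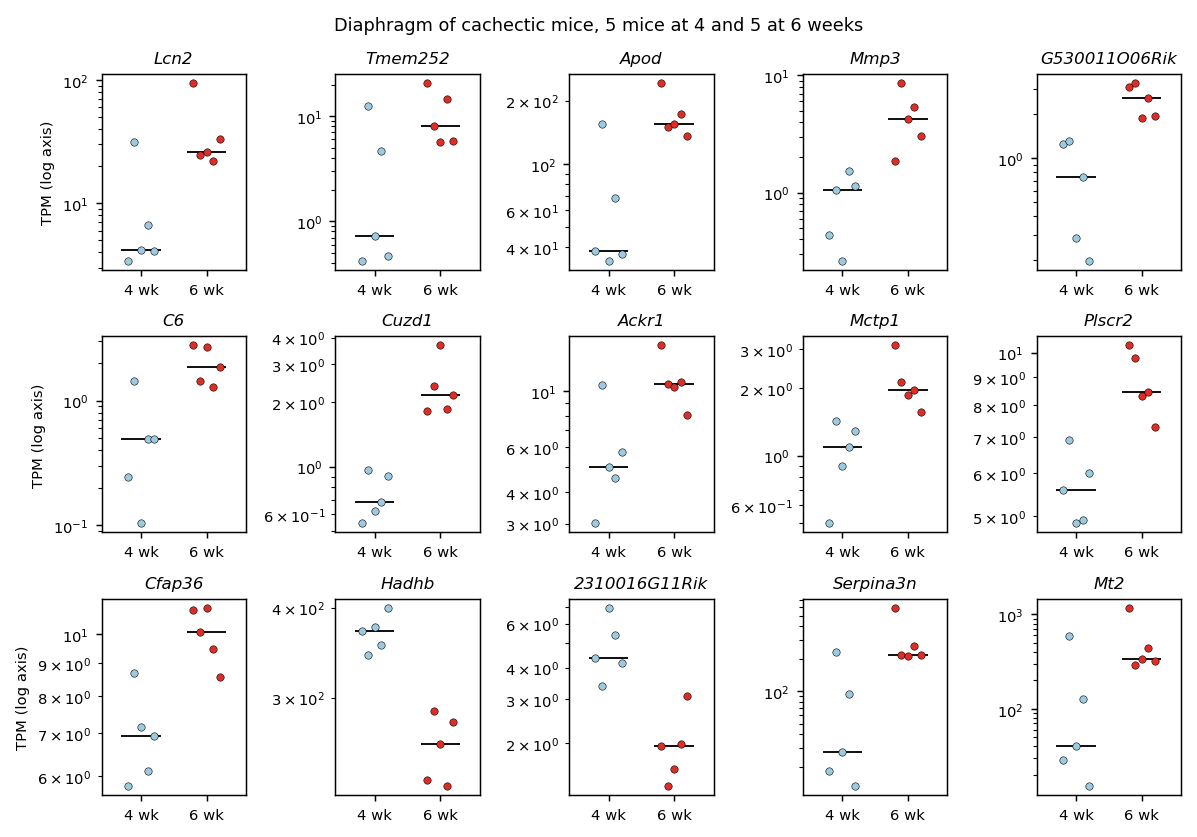
TPM of the 13 genes called in the fit of 62 libraries and of Serpina3n and Mt2, in cachectic mice at 4 weeks (5 points, left) and 6 weeks (5 points, right), each on its own logarithmic TPM axis, with a bar at the median. The upper outlying 4-week point of Lcn2 (31.4), Apod, Tmem252, Serpina3n and Mt2 is the same mouse, replicate 2, and the highest 6-week point of those 5 genes is replicate 1.

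That 4-week mouse recurs across the calls. Replicate 2 was the highest of the 4-week mice for 10 of the 11 genes that were higher at 6 weeks and the lowest for both genes that were lower. It was also the highest 4-week mouse for 124 of the 246 genes that were higher without overlap, against 8 to 49 for each of the other 4 mice. Trim63 had 351 TPM and Fbxo32 353 in it, above every other 4-week cachectic mouse. Over the 25 genes of the glucocorticoid list its mean log2(TPM + 1) was 5.61, against 3.99 to 4.99 in the other 4-week mice, and its macrophage markers were the highest of that group at 3.50, against 3.11 to 3.31. Its mitochondrial share of 39.6% was the lowest of the 4-week mice, and its liver markers, at 0.56, were not raised. The part of these values in the comparison was not tested.

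Acute phase and secreted innate defence genes formed the list with the highest median among the 37 pathway lists. All 21 genes of the list were tested, and their median log2 fold change was 1.08, against 0.12 over all genes, -0.12 for the list in control mice and 0.15 in non-cachectic mice. Lcn2 was the member called in the fit of 62 libraries. In the fit of 30 libraries 11 rose and 0 fell, 6 rose with median-ratio scaling, (background 9.53% and 2.22%), and 10 rose without 6-week replicate 5, where the median of the list was 0.87. Leaving out single mice gave 5 (4-week replicate 1) to 14 (4-week replicate 2). Without scaling, 0 of the 21 exceeded the control change past the threshold in the fit of 30 libraries.

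Serpina3n, a secreted inhibitor of serine proteases made by liver and, in wasting, by muscle, had 18.1, 231, 27.5, 93 and 13.2 TPM at 4 weeks and 590.4, 216, 213, 263 and 216 at 6 weeks. The 6-week mice lay from 213 to 590.4, and of the 4-week mice only replicate 2 entered that range. Its log2 fold change of 2.64 ± 0.70 did not pass in the fit of 62 libraries (adjusted p = 0.156) and passed in the fit of 30 (adjusted p = 0.00265), also in each of the 10 fits without 1 cachectic mouse. Control mice had 8.21 and 7.39 TPM on average. The difference of Serpina3n from the control change did not pass in the fit of 30 libraries (adjusted p = 0.061), but did with median-ratio scaling (adjusted p = 0.0339). Ceruloplasmin, the copper ferroxidase encoded by Cp, had 12.2, 20.8, 10.4, 11 and 14.1 TPM at 4 weeks and 30.7, 23.2, 22.8, 21.9 and 31.3 at 6 weeks, without overlap (log2 fold change 0.90, adjusted p = 0.00187 in the fit of 30 libraries). Its control difference did not pass there (adjusted p = 0.0612, and 0.055 with median-ratio scaling). Lbp, which hands lipopolysaccharide to its receptor, spanned 8.83 to 30.2 TPM at 4 weeks and 20.4 to 46.5 at 6 weeks (log2 fold change 1.06, adjusted p = 0.00781 in the fit of 30 libraries). Saa1, serum amyloid A, spanned 0.258 to 14.2 TPM at 4 weeks and 2.66 to 361 at 6 weeks, and passed unscaled (adjusted p = 0.0397) but not with median-ratio scaling (adjusted p = 0.066), both in the fit of 30 libraries. Serpina3m and Lrg1 also rose there (log2 fold change 2.26 and 0.86, adjusted p = 0.00929 and 0.0246). The call of Saa1 held in 5 of the 10 fits without 1 cachectic mouse and that of Lrg1 in 6. Of the 11 that rose, 8 had a RefSeq promoter window. Of these, 5 (C3, Cp, Lcn2, Saa1 and Steap4) held the C/EBP pattern TTGCNNAA (9.56% of all windows), 2 (Fgl2 and Steap4) the STAT pattern TTCNNNGAA (7.02%), 2 (Fgl2 and Lcn2) the GC box GGGCGG (32.7%) and 0 the ERR pattern TCAAGGTCA (0.387%), searched on both strands.

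Metallothioneins bind zinc and copper and are induced by zinc, glucocorticoids and IL-6. Mt2 had 28.6, 587, 39.9, 128 and 15.2 TPM at 4 weeks and 1176, 289.9, 335, 436 and 321 at 6 weeks. Replicate 2 at 4 weeks and replicate 1 at 6 weeks were far above the rest of their groups. The log2 fold change was 2.68 ± 0.70 (adjusted p = 0.147 in the fit of 62 and 0.00817 in the fit of 30 libraries). Mt1 went from 294 ± 303 to 634 ± 419 TPM (SD, n = 5, adjusted p = 0.0246 in the fit of 30 libraries). Slc39a14, the ZIP14 zinc importer, had a log2 fold change of 1.24 (adjusted p = 0.0159 in that fit). The calls of Mt1 and Slc39a14 held in 6 and 7 of the 10 fits without 1 mouse. Of 20 tested genes of metallothioneins and zinc transporters, 5 rose and 0 fell in the fit of 30 libraries, around a median of 0.22. The counts were the same with median-ratio scaling (background of genes that rose 9.53% and 2.22%). In the unscaled fit 0 exceeded the control change past the threshold. The count without single mice was 2 (4-week replicate 1) to 11 (4-week replicate 2), and 9 without 6-week replicate 5.

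Complement genes had a median log2 fold change of 0.59 over 22 tested genes. In the fit of 30 libraries 10 were higher and 0 lower, and 7 were higher with median-ratio scaling (background 9.53%, 1.16% and 2.22%). In the unscaled fit 2 exceeded the control change. When single mice were left out, 5 (4-week replicate 1, beside 207 of all genes) to 12 (6-week replicate 5, beside 2904) were higher. Besides C6, they include Cfb, factor B of the alternative pathway, at 10 to 17.9 TPM at 4 weeks and 22.1 to 64.5 at 6 weeks (log2 fold change 1.11, adjusted p = 0.00907 in the fit of 30 libraries). C7, a further membrane attack component, had a log2 fold change of 1.41 (adjusted p = 0.0134 there), and C4b one of 1.22 (adjusted p = 0.0414, and 0.0793 with median-ratio scaling). The calls of C7, C4b and C3 held in 9, 2 and 4 of the 10 fits without 1 cachectic mouse. C3, the component on which all pathways meet, went from 286 ± 70.3 to 481 ± 104 TPM (SD, n = 5, adjusted p = 0.0314 in the fit of 30 libraries, 0.0807 with median-ratio scaling). Clu, clusterin, a regulator of the cascade, had 36.6, 38.9, 39.1, 40 and 41.8 TPM at 4 weeks and 61.8, 51.4, 53.9, 54.5 and 70.3 at 6 weeks, without overlap (log2 fold change 0.55, adjusted p = 0.00406), and its change exceeded that of control mice by 0.81 (adjusted p = 0.00926), all in the fit of 30 libraries. The value of 70.3 is from 6-week replicate 5, whose liver markers were raised (7.86). In control mice Clu changed by -0.26, and liver markers had a median of -1.83. The part of liver RNA in the Clu values was not tested.

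Genes of cytokine signalling were examined next, at the level of RNA only. Of 27 tested genes of IL-6 family receptors and STAT3 signalling, 5 rose and 0 fell in the fit of 30 libraries, around a median of 0.22 (background 9.53% and 1.16%). Without single mice 0 (4-week replicate 1) to 10 (4-week replicate 2) rose. Osmr, the oncostatin M receptor, spanned 6.65 to 18.3 TPM at 4 weeks and 13.8 to 21.8 at 6 weeks (log2 fold change 0.75, adjusted p = 0.0125), and Il6st, which encodes gp130, 41 to 66.7 TPM at 4 weeks and 51 to 80.6 at 6 weeks (log2 fold change 0.38, adjusted p = 0.0246). Csf2rb and Il4ra also rose (log2 fold change 1.11 and 0.89, adjusted p = 0.0188 and 0.0199 in the fit of 30 libraries). Both encode receptor subunits outside the IL-6 family, so the list, whose highest change is that of Csf2rb, is wider than its name. The calls of Osmr, Il6st, Csf2rb and Il4ra held in 9, 4, 7 and 6 of the 10 fits without 1 cachectic mouse. Socs3, the feedback inhibitor of the pathway, had a log2 fold change of 0.51 (adjusted p = 0.133 there), and Stat3 one of 0.37 (adjusted p = 0.0728). In the same fit 3 of 20 NF-kB and TNF genes, 4 of 18 chemokines and 6 of 33 interferon and antigen presentation genes rose and 0 of each fell (background 9.53% and 1.16%). Their medians were 0.30, 0.23 and 0.21. Leaving out single mice gave 0 to 6, 0 to 5 and 0 to 8 genes that rose. Best known among them, Nfkbia was at 0.29, Ccl2 at -0.19, Cxcl13 at 1.64, Ifit1 at 0.34 and B2m at 0.30 on the log2 scale, with adjusted p of 0.449, 0.513, 0.152, 0.323 and 0.274 in the fit of 30 libraries.

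Macrophage markers were also examined. Of 11 tested, 3 rose and 0 fell in the fit of 30 libraries (median 0.45, background 9.53%), 2 rose with median-ratio scaling and 1 to 5 when single mice were left out, and 0 exceeded the control change. The mean log2(TPM + 1) of the list lay between 3.11 and 3.50 in the 4-week mice and between 3.41 and 3.97 in the 6-week mice, with overlap. Mrc1, the mannose receptor of tissue macrophages, had 7.16 to 14 TPM at 4 weeks and 11.7 to 20.3 at 6 weeks (log2 fold change 0.73, adjusted p = 0.00774 in that fit), and Cd163, the hemoglobin scavenger receptor, 4.46 to 13.1 and 11.3 to 24.3 (log2 fold change 0.97, adjusted p = 0.0138, held in 8 of the 10 fits without 1 mouse). The part of macrophages in the complement, cytokine and lysosome results was not tested. Of 10 neutrophil markers 5 reached the level for testing, with a median of 0.30.

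**Figure D2:**
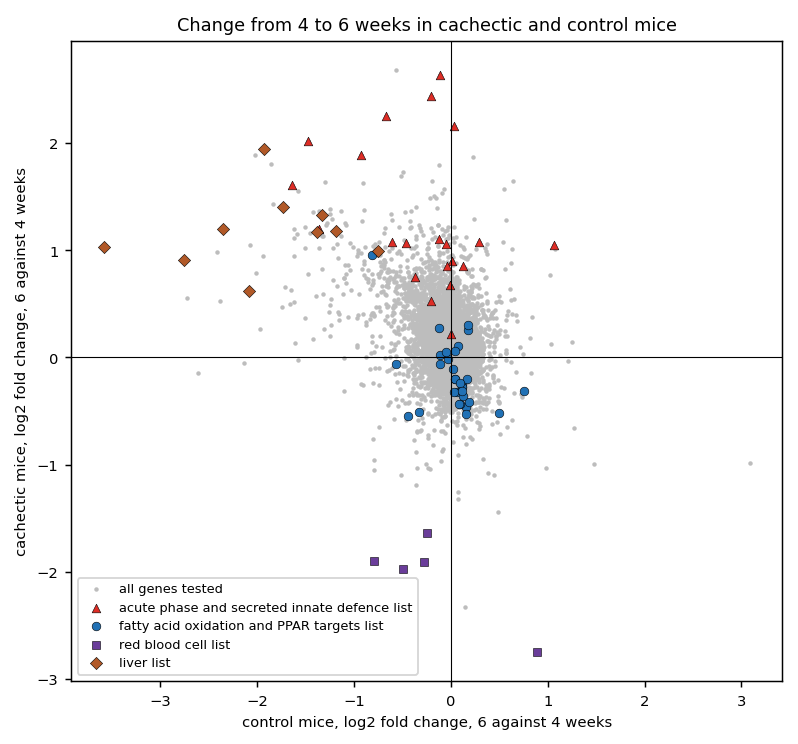
Log2 fold change at 6 against 4 weeks in control mice (horizontal axis) and cachectic mice (vertical axis) for 13578 genes, with 4 lists in colour. Acute phase genes sit above 0 in cachectic mice, most fatty acid oxidation genes below 0, red blood cell genes furthest below, and liver genes are negative in control mice (median -1.83) and positive in cachectic mice (median 1.18, and -0.23 without 6-week replicate 5).

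Fatty acid oxidation was the pathway list with the lowest median. Of 32 tested genes of fatty acid oxidation and PPAR targets, 14 fell (against 1.16% of all genes) and 1 rose in the fit of 30 libraries. The counts were also 14 and 1 without 6-week replicate 5. With median-ratio scaling 15 fell (against 5.32% of all genes) and 0 rose. The median log2 fold change was -0.24 in cachectic mice, 0.08 in control mice and 0.02 in non-cachectic mice. In 11 of the 32 genes every 6-week mouse was below every 4-week mouse (0.523% of all genes), and in 0 every one was above (1.81%). For 10 of them the cachectic change fell below the control change past the threshold in the fit of 30 libraries, whose background is 0.162% of all genes. Leaving out single cachectic mice gave 10 to 14 genes that fell. The 1 that rose was Lpl, which releases fatty acids from lipoproteins (log2 fold change 0.26, adjusted p = 0.0424 in the fit of 30 libraries, held in 2 of the 10 fits without 1 mouse, and 0.417 with median-ratio scaling).

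The subunits of the mitochondrial trifunctional protein, which carries out the last steps of each turn of oxidation on long chains, fell together. Hadhb (chr5:30155248-30184593, plus strand), the beta subunit with thiolase activity, had 372, 344, 376, 355 and 399.7 TPM at 4 weeks and 230.5, 287, 259, 226 and 278 at 6 weeks. The groups do not overlap, and the highest 6-week mouse was 287. The log2 fold change was -0.53 ± 0.11 (adjusted p = 0.0249 in the fit of 62 libraries and 1.83e-04 in the fit of 30), and it passed in all 10 fits of 30 libraries that left out 1 cachectic mouse. Control mice had 395 ± 20.5 and 440.4 ± 24.9 TPM (SD, n = 5) and non-cachectic mice 423 ± 33.2 and 416 ± 29.2. The cachectic change was below the control change by 0.69 on the log2 scale (difference -0.69, adjusted p = 0.00111 in the fit of 30 libraries). Hadha (chr5:30118304-30155162, minus strand), the alpha subunit with hydratase and dehydrogenase activity, had 353, 335, 352, 360.5 and 368 TPM at 4 weeks and 254, 294, 267, 228 and 266 at 6 weeks, also without overlap. Its log2 fold change was -0.44 ± 0.21 (adjusted p = 0.67 in the fit of 62 and 1.83e-04 in the fit of 30 libraries).

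Both genes start from the same short stretch. Hadha and Hadhb lie head to head, and the bases between their annotated starts, chr5:30155163-30155247 of GRCm38 on the plus strand, are shown from RefSeq because Hadhb, the fatty acid oxidation gene called in the fit of 62 libraries, shares them with its partner subunit. Capitals mark matches to GGGCGG, the GC box, searched on both strands.
Hadhb and Hadha: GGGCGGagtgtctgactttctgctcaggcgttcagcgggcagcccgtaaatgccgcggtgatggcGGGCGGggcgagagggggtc
The GC box is found in 32.7% of promoter windows. Among the genes of the list that fell in the fit of 30 libraries, 12 have a promoter window, of which 9 hold the GC box, 3 (Cpt2 and the facing windows of Hadha and Hadhb, which share bases) the STAT pattern TTCNNNGAA against 7.02% of all windows, 2 the C/EBP pattern and 0 the ERR pattern TCAAGGTCA, which 0.387% of windows hold. These are counts of letters and not of bound factors.

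The decrease extended through the steps of the pathway. Fabp3, the fatty acid binding protein of heart and red muscle, had 5087, 3784, 4354, 4660.3 and 5516 TPM at 4 weeks and 3129, 3194, 3867, 2851 and 3934 at 6 weeks, with overlap (log2 fold change -0.46 ± 0.14, adjusted p = 0.234 in the fit of 62 and 0.00599 in the fit of 30 libraries). Slc27a1, the fatty acid transport protein FATP1, which is not in the list, spanned 129 to 178 TPM at 4 weeks and 96.4 to 125 at 6 weeks. In the carnitine shuttle, Cpt1b, the muscle carnitine palmitoyltransferase of the outer membrane, spanned 389.9 to 439 TPM at 4 weeks and 337 to 383 at 6 weeks, Cpt2 of the inner membrane 125 to 163 TPM at 4 weeks and 93.8 to 119 at 6 weeks, and the carrier Slc25a20 108 to 134 TPM at 4 weeks and 81.9 to 104 at 6 weeks. None of these 4 overlapped, and their log2 fold changes were -0.47, -0.20, -0.32 and -0.27, with adjusted p of 0.00674, 0.0306, 0.0154 and 0.0283 in the fit of 30 libraries. Cpt1b and Slc25a20 kept an adjusted p under 0.05 in 5 of the 10 fits without 1 cachectic mouse.

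Of the acyl-CoA dehydrogenases, which take the first step on chains of different length, the short-chain enzyme had the largest change. Acads had 129, 117, 140.2, 130.0 and 138 TPM at 4 weeks and 85, 111, 101, 88.5 and 96.4 at 6 weeks, without overlap (log2 fold change -0.44 ± 0.27, adjusted p = 0.79 in the fit of 62 and 5.49e-04 in the fit of 30 libraries). It was the gene whose change also differed from that of non-cachectic mice (difference -0.51, adjusted p = 0.0389 in the fit of 30 libraries), in which it went from 136 ± 4.29 to 144 ± 7.77 TPM. The medium-chain Acadm spanned 351 to 378 TPM at 4 weeks and 287 to 326 at 6 weeks, without overlap (log2 fold change -0.25, adjusted p = 0.00352). The long-chain Acadl and very long-chain Acadvl both changed by -0.20 with overlap (adjusted p = 0.0261 and 0.017 in the fit of 30 libraries, held in 5 and 9 of the 10 fits without 1 mouse). Tests of differences between the dehydrogenases were not run.

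Other enzymes of the spiral also fell. Ech1, which moves double bonds of unsaturated chains, had 522, 581, 543, 579 and 528 TPM at 4 weeks and 384, 454, 407, 418 and 399 at 6 weeks, without overlap (log2 fold change -0.42 ± 0.11, adjusted p = 0.147 in the fit of 62 and 6.07e-04 in the fit of 30 libraries). Control mice moved by 0.19, from 473 to 541 TPM. Eci1, the enoyl-CoA isomerase, went from 331 ± 15 to 258 ± 6.18 TPM (SD, n = 5), Hadh, the short-chain hydroxyacyl-CoA dehydrogenase, from 163 ± 12.2 to 130.1 ± 7.0, and Acaa2, a mitochondrial thiolase, from 695 ± 40.2 to 558 ± 24. None of the 3 overlapped between 4 and 6 weeks, and their adjusted p were 6.07e-04, 0.00246 and 0.0022 in the fit of 30 libraries. In the fit of 62 libraries they were 0.563, 0.599 and 0.341. The 10 genes of the list whose change was below the control change were Hadhb, Ech1, Hadha, Eci1, Acads, Acaa2, Acadm, Hadh, Fabp3 and Cpt1b, with adjusted p from 0.00111 for Hadhb to 0.0385 for Cpt1b in the fit of 30 libraries. Without single cachectic mice, 7 of these differences passed in each of the 10 fits, and those of Hadh, Fabp3 and Cpt1b in 7, 7 and 5 of them. The coactivator Ppargc1a, a known driver of the program, was at 16.5 to 67.2 TPM at 4 weeks and 17.4 to 57.2 at 6 weeks (log2 fold change 0.02, adjusted p = 0.967 in the fit of 30 libraries).

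**Figure D3:**
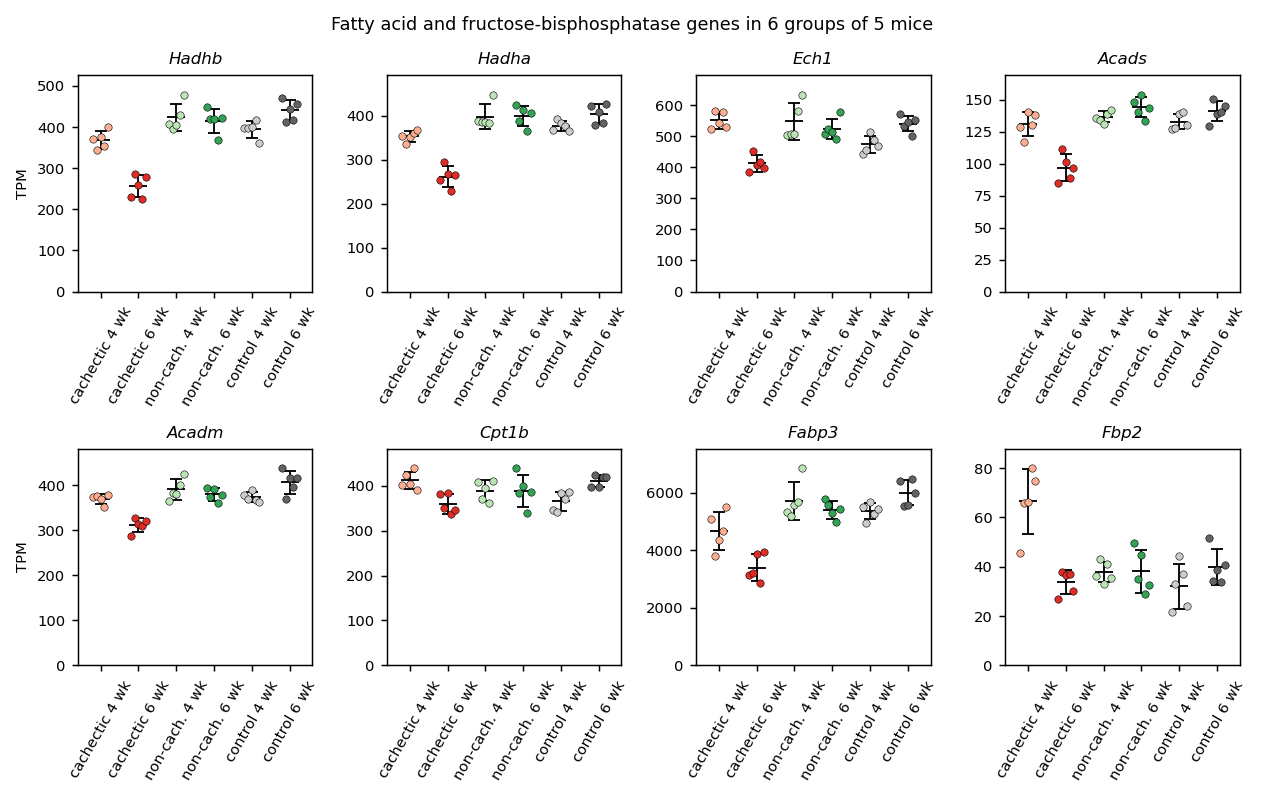
TPM of 7 fatty acid genes and Fbp2 in cachectic, non-cachectic and control mice at 4 and 6 weeks, 5 points a group with the mean and SD, on axes from 0. Cachectic mice at 6 weeks have the lowest mean of the 6 groups for each of the fatty acid genes, and for Fbp2 the 4-week cachectic mice have the highest mean.

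Nuclear genes of oxidative phosphorylation also had a median below 0. Of 44 tested, 9 fell (against 1.16% of all genes) and 0 rose in the fit of 30 libraries, with a median log2 fold change of -0.08. With median-ratio scaling 28 fell (against 5.32%), and 5 to 15 fell when single mice were left out. In the unscaled fit 0 of the 44 fell below the control change past the threshold. Cox7a1, the muscle form of a cytochrome oxidase subunit, spanned 1016 to 1348 TPM at 4 weeks and 883 to 1011 at 6 weeks without overlap (log2 fold change -0.32, adjusted p = 0.00599 in the fit of 30 libraries). Its control difference did not pass (adjusted p = 0.197). Cox4i1 was at -0.04 (adjusted p = 0.449). Among 29 genes of glycolysis and glycogen metabolism 2 rose and 2 fell, around a median of 0.03, or 0 to 6 and 1 to 6 when single mice were left out. Fbp2, muscle fructose-bisphosphatase, a gluconeogenic enzyme, had 45.6, 65.8, 66.4, 79.9 and 74.8 TPM at 4 weeks and 26.8, 37.8, 36.6, 37.2 and 30.2 at 6 weeks (log2 fold change -0.95 ± 0.23, adjusted p = 0.111 in the fit of 62 and 0.00309 in the fit of 30 libraries). The groups do not overlap, and the 6-week cachectic mice were near the other groups, since control mice had 32 ± 9.22 and 39.8 ± 7.18 TPM and non-cachectic mice 37.8 ± 4.12 and 38.1 ± 8.63. Pfkm, muscle phosphofructokinase, was at -0.23 (adjusted p = 0.0563 in the fit of 30 libraries).

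Most genes of the contractile apparatus did not pass, and those of the sarcomere list that did were higher. The myosin heavy chains of fibre types 1, 2A, 2X and 2B, Myh7, Myh2, Myh1 and Myh4, had log2 fold changes of 0.22, 0.31, 0.16 and 0.01, with adjusted p of 0.401, 0.0679, 0.617 and 0.993 in the fit of 30 libraries, so 0 of 7 myosin genes passed there. Of 32 sarcomere genes 7 rose and 0 fell (median 0.12, background 9.53% and 1.16%). With median-ratio scaling 2 rose (background 2.22%), and 4 to 12 when single mice were left out. Des, which encodes desmin, the intermediate filament that ties Z-discs together, had 1746, 2161, 1964, 2282 and 1816 TPM at 4 weeks and 3656, 2500.0, 3007, 2917 and 2412 at 6 weeks, without overlap (log2 fold change 0.53, adjusted p = 0.00944 in the fit of 30 libraries). Myoz2, a calcineurin-binding Z-disc protein of slow fibres, had 333, 419, 242, 321 and 243 and 589.7, 446, 559.8, 608 and 451 TPM, also without overlap (log2 fold change 0.79, adjusted p = 0.00397). Ankrd2, a stretch-responsive gene of slow fibres, spanned 98.5 to 481 TPM at 4 weeks and 439 to 719.5 at 6 weeks (log2 fold change 1.39, adjusted p = 0.0468, held in 2 of the 10 fits without 1 mouse, and 0.0902 with median-ratio scaling). Ttn was at 0.21, Tnni1 at -0.09 and Ky at -0.91, none past the threshold (adjusted p = 0.0959, 0.674 and 0.0561).

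Sbk2 and Chrna2 are single genes with large falls. Sbk2, a little-studied kinase gene, had 19.7, 11.8, 26.4, 21.9 and 24.7 TPM at 4 weeks and 10.1, 6.15, 6.96, 7.21 and 7.48 at 6 weeks, without overlap (log2 fold change -1.32, adjusted p = 0.0019, control difference -1.39, adjusted p = 0.0455, the last of which held in 2 of the 10 fits without 1 cachectic mouse). Chrna2, a nicotinic receptor subunit, had 3.92, 6.12, 3.46, 10.8 and 4.82 and 2.66, 2.54, 1.66, 1.42 and 2.64 TPM, again without overlap (log2 fold change -1.03, adjusted p = 0.0104). In control mice mean Chrna2 was 3.98 TPM at 4 weeks and 8.74 at 6 weeks, and the difference of -2.02 passed (adjusted p = 0.00335). Pvalb, parvalbumin, the calcium buffer of fast fibres, went from 696 ± 204 to 375 ± 198 TPM (SD, n = 5, adjusted p = 0.048, held in 3 of the 10 fits without 1 mouse). All p in these sentences are from the fit of 30 libraries. Of 23 calcium handling genes 1 rose and 1 fell, of 19 junction and denervation genes 1 rose and 0 fell, and of 20 satellite cell genes 1 rose and 0 fell. When single mice were left out the genes that rose numbered 0 to 4, 1 to 3 and 0 to 3, and the calcium handling genes that fell 0 to 3. Ryr1 was at 0.24, Chrna1 at 0.03 and Pax7 at -0.12 (adjusted p = 0.0806, 0.859 and 0.424).

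The ubiquitin ligases of atrophy did not pass between 4 and 6 weeks. Trim63 had 158, 351, 149, 176 and 148 TPM at 4 weeks and 477, 299.9, 152, 214 and 170.3 at 6 weeks. The ranges overlap, with replicate 2 high at 4 weeks and replicate 1 high at 6 weeks, and the log2 fold change was 0.38 ± 0.45 (adjusted p = 0.882, and 0.388 in the fit of 30 libraries). Fbxo32 had 172, 353, 171, 145 and 137 and 279, 198, 117, 209 and 119 TPM (log2 fold change -0.07 ± 0.44, adjusted p = 0.981 and 0.864). Of 25 genes of atrophy ligases and adaptors 0 rose and 1 fell in the fit of 30 libraries, around a median of 0.07, the one being Asb10 (log2 fold change -0.35, adjusted p = 0.0243, held in 6 of the 10 fits without 1 mouse). Leaving out single mice gave 0 to 3 that rose and 0 to 2 that fell. With SEs of this size a modest change in either direction would not be detectable here.

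In other arms of protein turnover the calls depended on the scaling. Of 33 proteasome subunits 7 rose and 0 fell in the fit of 30 libraries (9.53% and 1.16% of all genes). With median-ratio scaling 0 rose and 2 fell (2.22% and 5.32% of all genes). Leaving out single mice gave 0 to 21 that rose, beside 207 to 3100 of all genes. The best known subunit gene, Psma1, was at -0.08 (adjusted p = 0.492). Of 32 autophagy genes 3 rose and 0 fell, or 0 and 2 with median-ratio scaling and 0 to 10 higher without single mice, with Foxo3 at 0.28 and Map1lc3b at 0.22 (adjusted p = 0.284 and 0.269). Of 27 lysosomal genes 10 rose and 0 fell, or 4 and 1 with median-ratio scaling, and 5 to 18 rose when single mice were left out. Lamp1, the main lysosomal membrane protein, went from 563 ± 50 to 723 ± 78.6 TPM (SD, n = 5, adjusted p = 0.00246), and Lamp2 and the proton pump subunit Atp6v1h had log2 fold changes of 0.39 and 0.60 (adjusted p = 0.0108 and 0.00674). Ctsl, a cathepsin known from wasting muscle, was at 0.49 (adjusted p = 0.0673). The adjusted p in these sentences are from the fit of 30 libraries without scaling.

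On the synthesis side, 10 of 60 cytosolic ribosomal protein genes rose and 0 fell in the fit of 30 libraries (9.53% and 1.16% of all genes). Under median-ratio scaling 1 was higher (2.22% of all genes). When single mice were left out 0 to 42 were higher, beside 207 to 3100 of all genes. Rpl3, the ribosomal protein whose paralog is specific to muscle, had a log2 fold change of 0.49 (adjusted p = 0.0152, held in 8 of the 10 fits without 1 mouse). Of 25 genes of IGF1 and insulin signalling 9 rose and 0 fell, or 1 and 1 with median-ratio scaling and 0 to 13 higher without single mice. Igfbp3, an IGF carrier, spanned 24.4 to 71.5 TPM at 4 weeks and 44.2 to 225 at 6 weeks (adjusted p = 0.0291, held in 5 of the 10 fits), while Igf1 was at 0.34 (adjusted p = 0.32). Of 22 myostatin and activin genes 0 passed by limma in the fit of 30 libraries, with Mstn at -0.13 (adjusted p = 0.876). In polyamine metabolism Odc1, the rate-limiting enzyme, rose, spanning 32.5 to 34.5 TPM at 4 weeks and 37.3 to 49.9 at 6 weeks without overlap (adjusted p = 0.0387) and Oaz2, an antizyme that inhibits it, fell by 0.27 on the log2 scale (adjusted p = 0.0305). With median-ratio scaling Odc1 did not pass (adjusted p = 0.148) and Oaz2 did (adjusted p = 0.0033), and without single mice their calls held in 3 and 5 of the 10 fits. Asns, asparagine synthetase, a target of the integrated stress response, had a log2 fold change of 0.75 (adjusted p = 0.0181, held in 8 of the 10 fits), and Atf4 one of 0.32 (adjusted p = 0.08). Of 26 stress response genes 3 rose and 0 fell, of 25 heat shock genes 1 and 0, of 21 antioxidant genes 1 and 0, of 14 NAD genes 1 and 0, and of 24 amino acid genes 4 and 2. Over all genes 9.53% rose and 1.16% fell. When single mice were left out the genes that rose numbered 0 to 9, 0 to 2, 0 to 3, 0 to 3 and 0 to 7 in these lists. Examples that did not pass were Cryab at 0.00, Hmox1 at 0.31, Nmrk2 at -0.41 and Slc7a5 at 0.40. All calls and p in this paragraph are from the fit of 30 libraries.

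Glucocorticoid receptor and target genes had a median log2 fold change of 0.59 over 25 genes. In the fit of 30 libraries 2 rose and 0 fell, near the shares of all genes (9.53% and 1.16%). With median-ratio scaling 1 rose and 1 fell (2.22% and 5.32% of all genes). Without single mice 1 (4-week replicate 1) to 8 (4-week replicate 2) rose, and without 4-week replicate 2 the median was 0.85. Hsd11b1, which regenerates active glucocorticoid within tissues, had 4.53, 10.7, 5.88, 8.3 and 4.59 TPM at 4 weeks and 21.9, 10.8, 13.8, 10.8 and 31.4 at 6 weeks, without overlap by a narrow margin (log2 fold change 1.21, adjusted p = 0.00912, control difference 1.63, adjusted p = 0.0455 in the fit of 30 libraries, the last of which held in 4 of the 10 fits without 1 cachectic mouse). The value of 31.4 is from 6-week replicate 5, whose liver markers were raised (7.86). In control mice Hsd11b1 changed by -0.42, and liver markers had a median of -1.83. The part of liver RNA in the Hsd11b1 values was not tested. Sgk1, a kinase induced by glucocorticoids, spanned 26.2 to 70.6 TPM at 4 weeks and 53.5 to 127 at 6 weeks (log2 fold change 0.92, adjusted p = 0.037, held in 3 of the 10 fits, and 0.084 with median-ratio scaling). Fkbp5, a sensitive target, spanned 7.18 to 114 TPM at 4 weeks and 55.3 to 155 at 6 weeks (log2 fold change 1.49, adjusted p = 0.109). Ddit4, Klf15 and Zbtb16 were at 1.03, 0.22 and 0.53 and the receptor Nr3c1 at -0.01, none past the threshold (adjusted p = 0.252, 0.416, 0.376 and 0.961). Of 19 clock genes 0 passed by limma in the fit of 30 libraries, and Arntl spanned 0.790 to 10.3 TPM at 4 weeks and 0.980 to 20.7 at 6 weeks, so mice within a group differed more than the groups.

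Matrix genes moved in both directions. Of 22 collagens 0 rose and 0 fell in the fit of 30 libraries, with a median of -0.14 in cachectic and -0.41 in control mice, and Col1a1 was at -0.46 (adjusted p = 0.325). Of 18 metalloproteases and TIMPs 3 rose and 0 fell (background 9.53% and 1.16%), among them Mmp3 and its inhibitor Timp1. Timp1 spanned 2.17 to 6.0 TPM at 4 weeks and 4.31 to 11.8 at 6 weeks (log2 fold change 0.82, adjusted p = 0.0488). Lox, the collagen and elastin cross-linking enzyme, rose (log2 fold change 0.96, adjusted p = 0.0246), Mfap4, a microfibril protein, fell (log2 fold change -1.10, adjusted p = 0.0257), and Eln was at 0.31 (adjusted p = 0.413). Dcn, decorin, was the only one of 13 small leucine-rich proteoglycans called, at 0.43 (adjusted p = 0.0425). Of 15 cell cycle genes 1 rose and of 22 adhesion and endothelial genes 1 rose, with 0 lower in each, and Cdkn1a was at 0.76 (adjusted p = 0.105). Without single mice the calls of Timp1, Lox, Mfap4 and Dcn held in 4, 4, 5 and 2 of the 10 fits, the metalloprotease and TIMP genes that rose numbered 1 to 8 and the adhesion and endothelial genes 0 to 7, and with median-ratio scaling Timp1 and Dcn did not pass (adjusted p = 0.0831 and 0.0985). The p and calls here are from the fit of 30 libraries.

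**Figure D4:**
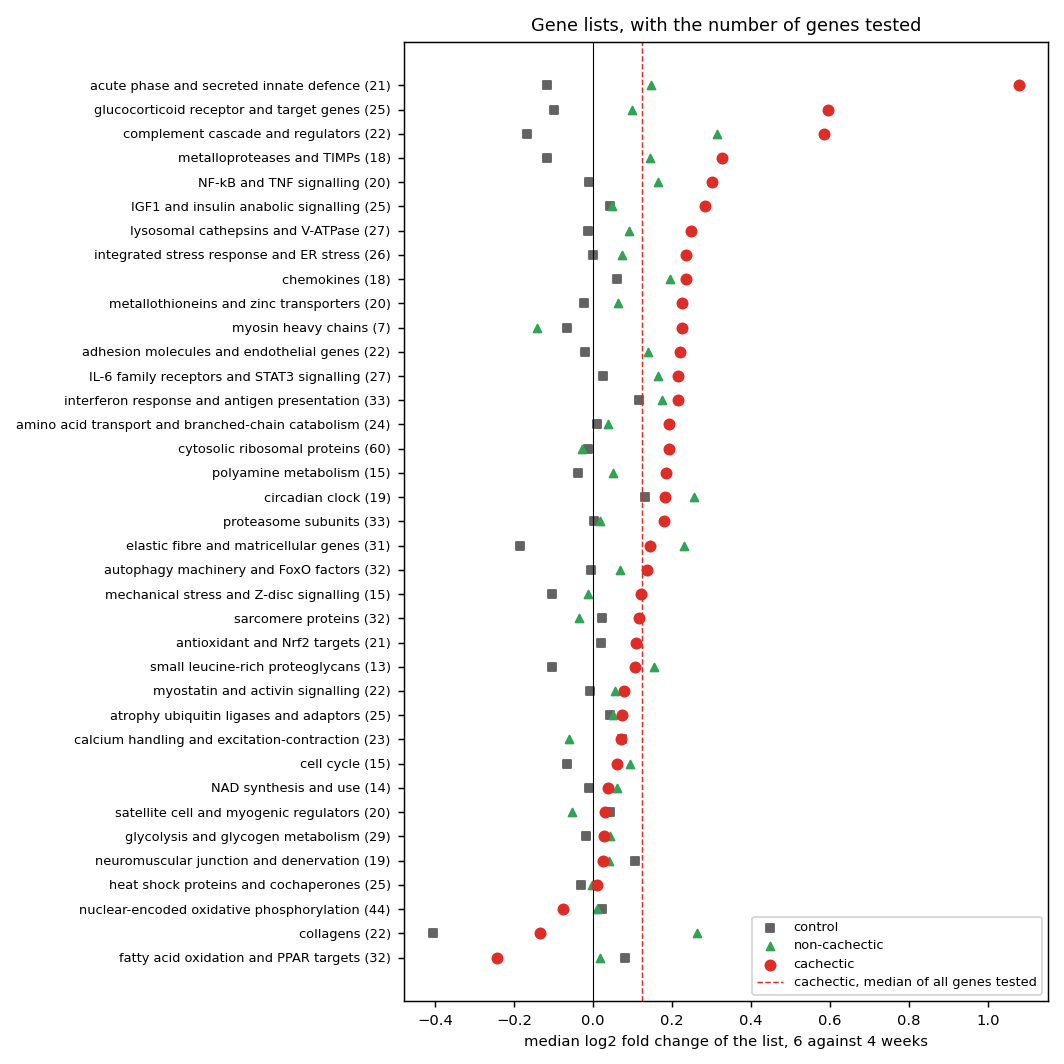
Median log2 fold change at 6 against 4 weeks for each of the 37 pathway lists in cachectic (circles), non-cachectic (triangles) and control mice (squares), with the number of genes tested and, dashed, the cachectic median of all genes (0.12). The acute phase list is furthest right at 1.08 and the fatty acid oxidation list furthest left at -0.24.

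Across the 37 lists, 34 medians were above 0 in cachectic mice, and 21 with median-ratio scaling, so a median slightly above 0 says little beyond the shift of all genes. Lists of other cells give the setting. The mean log2(TPM + 1) of 8 muscle fibre markers was 11.9 to 12 in the 4-week mice and 11.7 to 12 in the 6-week mice. Their log2 fold changes ran from -1.03 to 0.31, with 0 higher and 1, Pvalb, lower in the fit of 30 libraries. Of 5 tested red blood cell genes, 4 fell in the fit of 30 libraries, and 0 to 5 when single mice were left out. In that fit 0 of the 5 fell below the control change past the threshold. Hbb-bs, a beta globin, had 9162, 6806, 2194, 5138 and 4562 TPM at 4 weeks and 592, 7454, 1461, 574 and 1163 at 6 weeks. Replicate 2 at 6 weeks lay within the 4-week range and the other 4 below it (log2 fold change -1.91, adjusted p = 0.0263 in the fit of 30 libraries, past the threshold in 6 of the 10 fits without 1 mouse). Hba-a1 and Alas2, alpha globin and the heme enzyme of erythroid cells, had log2 fold changes of -1.90 and -1.64 (adjusted p = 0.0231 and 0.0417, held in 7 and 4 of the 10 fits). Globin copies are nearly identical, so the split of reads among them is uncertain. Liver markers had a median of 1.18 with 0 called by limma, or -0.23 without 6-week replicate 5. Medians were 0.18 for 9 adipocyte, 0.19 for 8 B cell, 0.48 for 6 mesothelium and -0.23 for 5 tenocyte markers. Melanocyte genes lay at 0.633 to 0.774 in the 10 mice.

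A list of genes that the study names in its text, not complete, had a median of 0.28 over 20 tested of 23, with log2 fold changes from -0.22 to 1.64. The study named them in other experiments, among them Lewis lung carcinoma and treatment with recombinant Fibcd1, and not for 6 against 4 weeks. In the fit of 30 libraries 5 rose, Capza1, Ctsc, Ctso, Ctsz and Scgb3a1 (log2 fold change 0.26, 0.31, 0.30, 0.30 and 0.96), and 0 fell (background 9.53% and 1.16%). Leaving out single mice gave 0 to 6 that rose, and the calls of these 5 held in 3, 5, 6, 7 and 4 of the 10 fits. With median-ratio scaling 0 passed by limma (adjusted p = 0.262, 0.233, 0.139, 0.152 and 0.0598). Ctsz, a lysosomal carboxypeptidase, spanned 37.2 to 44.4 TPM at 4 weeks and 45.9 to 54.7 at 6 weeks without overlap, and Ctss, the cathepsin of antigen-presenting cells, 11.7 to 26 TPM at 4 weeks and 26.9 to 39.1 at 6 weeks, also without overlap but past no adjusted threshold (adjusted p = 0.145).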

How the data were processed

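RNA-seq was made from the diaphragm of 62 mice. The authors trimmed the reads, aligned them with CLC Genomics Workbench to mm10 (GRCm38) and deposited TPM values of 47643 genes per library, each library summing to 1000000. The annotation release and the handling of multiply matching reads are not given in the sources used here, and the sources name different TruSeq kits, so values of close paralogs, overlapping genes and antisense genes are uncertain. Depth in reads is unknown, and no counting error is given.

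From TPM, log2(TPM + 1) was computed for 13578 genes, those reaching 1 TPM or more in 5 or more of the 62 libraries. limma (3.58.1, R 4.3.3) fitted the mean of each of the 12 groups with a mean-dependent prior spread, with Benjamini-Hochberg adjustment within each contrast and a threshold of 0.05. Groups came from the treatment and time of the labels. Differences of single values between groups of mice used exact two-sided permutation tests. The scripts were tested on simulated data. Genes named are the calls of that fit, up to 4 called members or the best known members of each list, the myosin heavy chains, Trim63 and Fbxo32, the genes of the study, and others named as chosen after their values were seen. The mice compared and the 37 pathway and 14 marker lists were chosen with earlier results of these data known. Alternatives were another pseudocount, other filters, scalings and samples, array weights, a liver covariate, Dunn's test, a replicate block and leaving out each mouse. Positions come from GENCODE M21 on GRCm38, matched by symbol for 13152 of the genes tested, and promoters from RefSeq GRCm38.p6. Plots were made in Python 3.11.15 with matplotlib 3.10.9.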

Additional observations from a re-analysis of the deposited data

Results flagged for a closer look

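Of 70 groups of 5 mice checked, 10 had a mouse set far from the others by Dixon's criterion. Its rate of about 1 in 20 groups holds for independent, normally distributed values. Most groups here are unlogged TPM, of genes partly chosen after their values were seen, and many flags share a mouse. The count of 10 is therefore not set against that rate. In 4-week replicate 2 these were Lcn2 (31.4 TPM), Apod (155 TPM), Mt2 (587 TPM), Trim63 (351 TPM) and Fbxo32 (353 TPM), each the highest of its group. In 6-week replicate 1 they were Lcn2 (94.6 TPM), Serpina3n (590.4 TPM) and Mt2 (1176 TPM). Hbb-bs stood apart in 6-week replicate 2 at 7454 TPM, and the mean log2(TPM + 1) of the liver markers in 6-week replicate 5 at 7.86.

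For 20 genes named in the text the change from 4 to 6 weeks differed between cachectic and control mice (limma with Benjamini-Hochberg adjustment in the fit of 30 libraries). The cachectic change was the higher one by 1.68 on the log2 scale for Mmp3, 1.63 for Hsd11b1, 1.11 for C6, 0.81 for Clu, 0.58 for Plscr2 and 0.54 for Cfap36. Outside the fatty acid genes the difference was -2.02 for Chrna2, -1.39 for Sbk2 and -1.28 for Fbp2. Among fatty acid genes it was -0.69 for Hadhb, -0.67 for Slc27a1, -0.62 for Fabp3, -0.61 for Ech1, -0.54 for Hadha, -0.52 for Acads, -0.48 for Eci1, -0.44 for Acaa2, -0.38 for Hadh, -0.37 for Acadm and -0.37 for Cpt1b.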

How the results depend on the processing

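The 13 calls in cachectic mice became 4 with a pseudocount of 0.1, 5 with median-ratio scaling, 6 when rescaled over genes that are not mitochondrially encoded, 5 with a log2 fold change over 1 as well, 55 at an unadjusted p under 0.01 with that fold, and 0 with only the groups compared (limma, with 2290 at an unadjusted p under 0.05) or by Dunn's test (1099). They became 371 without the 4 libraries with the fewest genes above 0, 1451 in the fit of 30 libraries, and 3519 with array weights, whose estimation did not converge. Leaving out single mice gave 0 to 76. For control mice the count of 0 became 1 with array weights and 2 at the unadjusted p with the fold, and for non-cachectic mice 1 with no filter, 1 with array weights and 1 at that p. The 0 differences from the control change became 1 with quantile normalization, 2195 with array weights, 21 with only the groups compared, 52 at the unadjusted p with the fold, 49 in the fit of 30 libraries and 0 to 5 without single mice. The 0 differences from the non-cachectic change became 655 with array weights, 18 at the unadjusted p with the fold and 1 in the fit of 30 libraries. In the fit of 30 libraries the 1451 calls became 938 with quantile normalization (264 higher and 674 lower) and 264 to 3498 without single mice, and the 49 differences from the control change became 306 with median-ratio scaling, 282 with quantile normalization, 86 with a liver covariate and 17 to 1156 without single mice. The lowest of these came without 4-week replicate 1 and the highest without 4-week replicate 2. The cause was not tested. The 317 genes without overlap became 357 to 1662 when single mice were left out, which also leaves fewer mice to overlap. The mitochondrial share difference ran from -4.68 to -2.03 percentage points, and its exact permutation p passed 0.05 without 6-week replicate 5. The difference in genes above 0 ran from -107.8 to 64.2, and was 333.6 for genes of at least 1 TPM (exact two-sided permutation test p = 0.00794, the smallest possible). Of the 37 list medians, 34 were above 0 and 21 with median-ratio scaling.

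Genes near 0 changed sign. With median-ratio scaling, quantile normalization and rescaling over genes that are not mitochondrially encoded, Cryab was at -0.14, -0.0046 and -0.078, Chrna1 at -0.096, -0.11 and -0.044, Myh4 at -0.13, -0.064 and -0.070 and Ppargc1a at -0.12, -0.11 and -0.060. Dunn's z of Cryab was -0.035. With array weights Ppargc1a was at -0.43 and Fbxo32 at 0.096, and with the liver covariate Nr3c1 was at 0.00051. Without single mice the log2 fold change ran from -0.051 to 0.046 for Cryab, -0.0083 to 0.075 for Chrna1, -0.46 to 0.81 for Myh4, -0.24 to 0.34 for Ppargc1a, -0.24 to 0.17 for Fbxo32, -0.060 to 0.045 for Nr3c1, -0.97 to 0.064 for Nmrk2 and -0.13 to 0.84 for Arntl.

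The replicate numbers share only a number: same-numbered cachectic mice of 4 and 6 weeks deviated from their group means with correlations of -0.04, 0.17, 0.22, -0.16 and -0.06 across genes, and only replicate 3 correlated best with its own number. With the replicate block the 13 calls became 10, and 1392 in the fit of 30 libraries. Depth is unknown, so genes of few TPM carry an unstated counting error.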
